A study of Mus musculus with 22 samples.

Results

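Interleukins and interferons are secreted proteins with which cells signal to one another, and the genes described here encode these proteins, their receptors and their inhibitors. They were chosen by name alone, as every row name of the count tables that begins with Il and a digit or with Ifn, which gave 55 of the 998 genes measured. By role these were 24 ligands, 29 receptor chains and 2 inhibitors. Ifna, Ifnl2/3 and Il11ra1/2 are probe names for more than 1 gene, whose transcripts were not told apart.

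Transcripts were counted in situ with CosMx, an imaging assay in which probes for a fixed panel are read out in segmented cells of a tissue section. The samples were 22 sections of the aorta-gonad-mesonephros (AGM) region of 2 mouse embryos at embryonic day 10. 13 sections, labelled Knockout, came from 1 Nr4a1-/-Nr4a2-/- embryo, which lacks a pair of orphan nuclear receptors, and 9 sections, labelled Wildtype, came from 1 Nr4a1+/+Nr4a2+/+ embryo. The groups follow the labels, while a figure legend of the study gives more wild-type and fewer knockout sections. This difference could not be settled here. Each genotype is thus 1 animal, and the slides as named hold 1 genotype each, so genotype, embryo and slide cannot be told apart. Every p-value between the embryos measures the spread between sections only.

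Most receptors of these families have no enzyme of their own and signal through Janus kinases, which phosphorylate STAT transcription factors. Receptors of the IL-1 and IL-17 families act through adaptor proteins on NF-kB instead. Several chains are shared between cytokines: Il6st (gp130) serves IL-6 and IL-11, and Il2rg serves IL-2, IL-7 and IL-15. In the AGM region, where blood stem cells arise from endothelium, inflammatory cytokines and interferons are known to take part in that step.

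Of 37575 cells, 37570 had at least 10 transcripts and 10 genes and were kept, with 169027 to 887896 transcripts and a median of 87 to 332 transcripts per cell in a section. Cells were sorted into groups by the counts of marker genes: 1904 Cdh5-gated cells (endothelium), 2525 hemoglobin-gated cells (erythroid), 1131 Tagln and Acta2-gated cells (smooth muscle), 2390 Twist1-gated cells and 27626 ungated cells. The gates were checked against other markers, each as the rate in gated over ungated cells. In Cdh5-gated cells 4 of 10 endothelial genes were at least 2-fold higher, from 1.55-fold to 2.95-fold for Pecam1 over the list. The erythroid genes Epor and Csf2rb were 5.16-fold and 5.07-fold higher in hemoglobin-gated cells. In Tagln and Acta2-gated cells 3 of 7 smooth muscle genes were at least 2-fold higher, from 1.19-fold to 4.53-fold for Tpm2 over the list, as were 2 of 8 mesenchymal genes, up to 2.81-fold for Col1a1. None of 8 mesenchymal markers reached 2-fold in Twist1-gated cells, which are therefore named by their gate only. Nr4a1 stood at 2.85 ± 0.279 transcripts per 10000 (SD, n = 9) in Wildtype and 2.32 ± 0.258 (SD, n = 13) in Knockout sections, which is 0.99 and 0.97 times the level of the dimmest genes of the panel, and Nr4a2 stood at 5.04 ± 0.853 and 4.31 ± 0.639, which is 1.75 and 1.80 times that level. Set against that level, neither gene was clearly lower in Knockout sections, so neither could check the labels.

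Levels were expressed as transcripts per 10000, with the 6 gate genes left out of the total, and set against the 50 dimmest genes (5%) of the panel. No negative control probes were used here, and these 50 are real targets that stand in for a background, Il2ra and Nr4a1 among them. This floor averaged 2.88 ± 0.0764 (SD, n = 9) in Wildtype and 2.39 ± 0.135 (SD, n = 13) in Knockout sections, so part of any low rate is a signal that the dimmest probes also gave. As probes differ in efficiency, the order of genes by level is that of their signal. 2 sections stood apart: Wildtype section 17 had the highest rate of 33 of the 55 genes and of 39.8% of the whole panel, and Knockout section 13 had the lowest rate of 26 of the 55 and of 30.7% of the panel.

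Most interleukin and interferon genes were close to the floor. Their median was 1.90 times the floor, against 2.30 times for all 992 genes outside the gates, and 24 of 55 (43.6%) reached 2 times the floor, against 64.9% of those 992 genes. The count was 24 as well without sections 13 and 17. 8 genes were past 2 times the floor in every section (Il15ra, Ifna, Il11ra1/2, Ifnar1, Il18, Il27ra, Ifngr2 and Il6), and 7 were under it in every section (Il17b, Il12rb2, Il23a, Il17a, Ifng, Il22ra1 and Il2ra). The lowest was Il2ra, the alpha chain of the IL-2 receptor, at 0.93 times the floor and itself among the 50 dimmest genes.

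**Figure D1:**
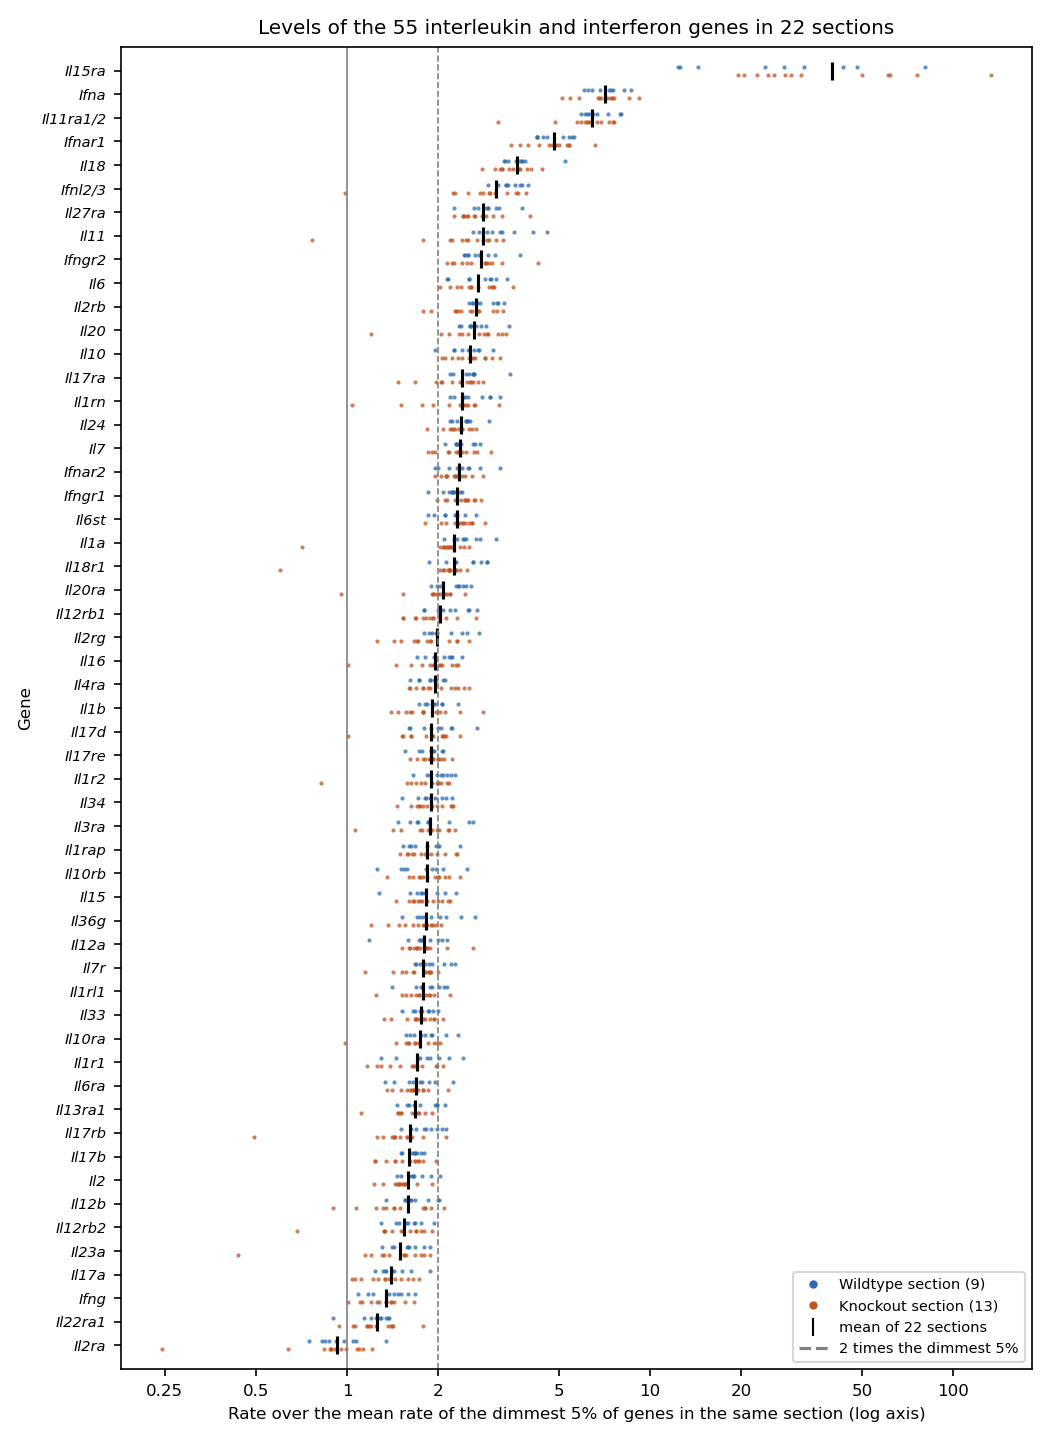
Level of each of the 55 genes as a multiple of the mean rate of the dimmest 5% of genes in the same section (log axis), with 1 point per section and the mean of 22 sections as a bar. Il15ra lies apart at 39.9 times the floor, 31 genes lie under the dashed line at 2 times the floor, and the lowest points of several genes are those of Knockout section 13.

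Among the ligands, Ifna, for the alpha group of the type I interferons, was the highest. Its lowest, median and highest rates were 17.8, 21 and 25.1 per 10000 in Wildtype and 12.7, 17.1 and 20.5 in Knockout sections, 7.09 times the floor over all sections. The ranges of the embryos overlapped. At least 1 Ifna transcript was counted in 24.8% of cells, with up to 13 in a cell. Il18, an IL-1 family cytokine made as an inactive precursor, followed at 9.45 ± 1.87 per 10000 (SD, n = 22), 3.63 times the floor, and Ifnl2/3, the type III interferons, at 8.13 ± 2.25, 3.10 times the floor. Then came Il11, a relative of IL-6, at 2.81 times the floor and Il6 at 2.70 times, and after them Il20, Il10, Il24, Il7 and Il1a, between 2.63 and 2.26 times. Il1b, the main secreted IL-1, stood at 1.90 times the floor, Il17a at 1.40 times and Ifng, the type II interferon, at 1.35 times.

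Among the receptors below Il15ra, Il11ra1/2, the binding chain for IL-11, was the highest, with 16.9, 18.1 and 24.0 per 10000 as the lowest, median and highest Wildtype section and 7.0, 15.3 and 18 in Knockout. Its mean was 6.42 times the floor, and the lowest value was that of section 13. Ifnar1, a chain of the type I interferon receptor, followed at 12.4 ± 2.19 per 10000 (SD, n = 22), 4.80 times the floor, while its partner Ifnar2 was at 2.34 times. The chains of the interferon gamma receptor, Ifngr2 and Ifngr1, were at 2.78 and 2.31 times the floor. Il27ra, Il2rb, Il17ra, Il6st, Il18r1, Il20ra and Il12rb1 were between 2.82 and 2.03 times. Il2rg was at 1.98 times, Il3ra at 1.87, Il7r at 1.79, Il1r1 at 1.70 and Il6ra at 1.69 times the floor.

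Of the inhibitors, Il1rn, which blocks the IL-1 receptor, was at 2.40 times and Il1r2, the decoy receptor of IL-1, at 1.89 times the floor. By family, the interferons and their receptors had the highest median, 2.78 times the floor over 7 genes with 6 past 2 times, and the IL-17 family the lowest, 1.75 times over 6 genes with 1 past 2 times. From Il27ra at 7.32 ± 1.46 per 10000 down to Ifng at 3.49 ± 0.639 (SD, n = 22), the step between neighbours was smaller than the SD over sections. Neighbours in this order were not compared within sections, so whether they differ was not tested.

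Il15ra, the high-affinity chain that presents IL-15 to cells carrying Il2rb and Il2rg, was measured at 102 per 10000 over all sections, above 98.8% of the panel, and gave 22.8% of all transcripts of the 55 genes. Its lowest, median and highest rates were 36.5, 78.6 and 230.1 in Wildtype and 44.5, 70.3 and 318.8 in Knockout sections. The ranges overlapped almost entirely, and high and low sections were found in both embryos. The ligand Il15 stood at 4.70 ± 0.765 per 10000 and the partner chains Il2rb and Il2rg at 6.94 ± 1.46 and 5.16 ± 1.27 (SD, n = 22), without such a range.

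**Figure D2:**
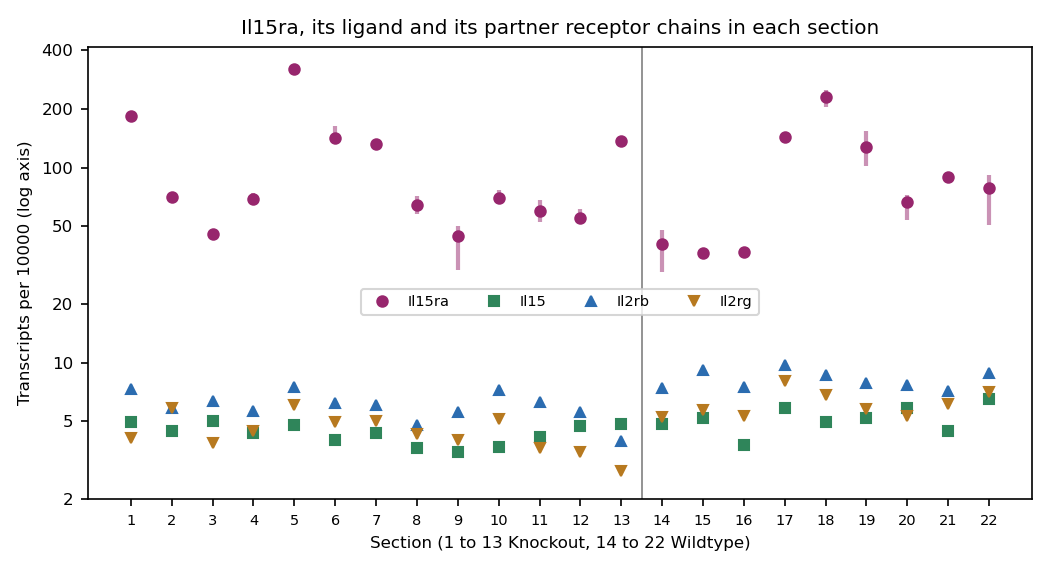
Transcripts per 10000 (log axis) of Il15ra, its ligand Il15 and its partner receptor chains Il2rb and Il2rg in each of 22 sections, with bars for the range of Il15ra over fields of view that hold at least 100 cells. Il15ra ran from 36.5 to 318.8 between sections, while the other genes stayed under 10 per 10000.

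The SD of log2 Il15ra rates over sections was 0.88, rank 2 of 992 genes, against a median of 0.27 for all genes and 0.29 for the 55. Within a section the rate varied less. Over the 18 sections with more than 1 field of view of at least 100 cells, the highest field was 1.01 to 1.82 times the lowest, with a median of 1.19, against 8.73 times between the highest and the lowest section. Set against the floor of each cell group, Il15ra was also alike across groups: its mean was 41.6 times the floor in hemoglobin-gated cells and 39.7 times in ungated cells, a ratio of the highest over the lowest of the 5 groups of 1.05, and only 0.302% of genes had a smaller ratio. The floor itself was higher in hemoglobin-gated cells, and in transcripts per 10000 Il15ra averaged 117.1 there against 100.9 in ungated cells and was higher in 20 of 22 sections. The genes with the most similar pattern over the 22 sections were Ms4a4b (r = 0.96 on log2 rates, Spearman rho 0.96), Ccl11 (r = 0.95), Cd274 (r = 0.90) and Eng (r = 0.90), ranked among 991 genes with a median r of 0.03. They were found after the values were seen, sections of an embryo are not independent, and no test was made. For Ms4a4b, r was 0.97 within the 13 Knockout and 0.95 within the 9 Wildtype sections, and 0.95 without the 2 sections farthest from the median of Il15ra. Without those 2 sections, r was 0.93 for Ccl11, 0.83 for Cd274 and 0.84 for Eng. Whether probe signal, position along the embryo or transcript level sets this pattern was not tested.

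The cell groups were compared with ungated cells of the same sections by edgeR's quasi-likelihood test with section as a block. Adjusted p-values below are from this test with Benjamini-Hochberg adjustment over 992 genes. As the sections come from 2 embryos, these p-values too measure the spread between sections and not between animals. Hemoglobin-gated cells gave the most calls. 18 of the 55 genes passed the threshold of 0.05 there, against 46.6% of all genes; 16 were higher (29.1%, against 22.9% of all genes) and 2 were lower (against 23.7%). Wildtype sections alone gave 9 higher, 8 of them among the 16, and Knockout sections alone 14, with 10 among the 16. DESeq2 gave 25, with all 16 among them. Called in either direction were 28.6, 37.4 and 52.8% of all genes under these settings, against the 46.6% above. The median log2 fold change of the 55 was 0.15, against 0.03 for all genes and -0.02 for the 50 dimmest. Of the 16 that rose, 8 were receptor chains, 7 ligands and 1 an inhibitor. With the sums of an entire group, more cells of a type and more RNA per cell cannot be told apart.

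The largest rise was that of Il10rb, a chain shared by the receptors of IL-10, IL-22 and the type III interferons. Its lowest, median and highest rates were 4.5, 7.59 and 11.1 per 10000 in hemoglobin-gated and 2.83, 4.28 and 7.24 in ungated cells, and it was higher in 21 of 22 sections. The ranges overlapped, but within a section the gated cells were the higher ones nearly throughout. The log2 fold change was 0.49 ± 0.095 (SE), with an adjusted p of 5.6e-06 by edgeR. For Il2rb, the signalling chain of the IL-2 and IL-15 receptors, the gated cells ran from 5.26 over 10.2 to 14.2 and the ungated cells from 3.57 over 6.76 to 9.92, with 22 of 22 sections higher. Here the log2 fold change was 0.44 ± 0.083 and the edgeR adjusted p was 3.1e-06.

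Il34, a ligand of the CSF1 receptor, ran from 4.0 over 7.12 to 12.8 per 10000 in gated and from 2.92 over 4.67 to 5.80 in ungated cells, higher in 19 of 22 sections. Its log2 fold change was 0.44 ± 0.093 (edgeR adjusted p 2.4e-05). Il12a, a subunit of IL-12, ran from 4.87 over 6.74 to 15.8 in gated and from 3.05 over 4.44 to 6.53 in ungated cells, higher in 21 of 22 sections, where the highest value was that of Knockout section 13. The fold change of Il12a, 0.41 ± 0.097 on the log2 scale (edgeR adjusted p 0.00017), fell to 0.23 with an adjusted p of 0.18 in the Wildtype sections alone.

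Il17ra, the common chain of IL-17 receptors, and Il6 also rose, by 0.36 ± 0.083 and 0.33 ± 0.081 on the log2 scale, with edgeR adjusted p of 0.00015 and 0.00036. Il17ra was higher in 20 of 22 sections and Il6 in 21. In the IL-6 and IL-12 family, 6 of 11 genes rose (Il6, Il11, Il12a, Il6ra, Il12rb1 and Il27ra), against 22.9% of all genes. In the other families 2 of 11 IL-1 genes, 2 of 11 gamma and beta chain genes, 2 of 7 IL-10 genes, 1 of 6 IL-17 genes and 2 of 7 interferon genes rose. Of these 6, Il6 passed under all 8 other settings, while Il11, Il12a, Il6ra and Il27ra each lost the call under 1, the sections of 1 embryo alone (adjusted p 0.10 to 0.93). Il12rb1 lost it under 3, each embryo alone and cells with at least 200 transcripts (adjusted p 0.059 to 0.13). The receptor Il6ra was higher in 21 of 22 sections, with a log2 fold change of 0.28 ± 0.094. The other genes that rose were Il24, Il1rn, Il1a, Il2rg, Ifnl2/3 and Ifnar2, with log2 fold changes from 0.29 down to 0.20. Under the 8 other settings, Il24 and Il1rn each lost the call in Wildtype sections alone (adjusted p 0.069 and 0.15) and Il1a in Knockout sections alone (0.80), while Ifnl2/3, Ifnar2 and Il2rg lost it under 2, 3 and 4 settings. The calls of Ifnar2, Ifnl2/3, Il12rb1 and Il2rg were each lost when 1 of 7, 2, 2 and 6 sections, respectively, was left out, and Il27ra was higher by 0.01 only in the Wildtype sections alone.

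Il7, a growth factor of lymphoid cells, and Ifna passed as lower, with log2 fold changes of -0.23 ± 0.093 and -0.16 ± 0.071 (edgeR adjusted p 0.031 and 0.0499). Neither direction was clear in the rates themselves, since Il7 was lower in 12 and Ifna in 11 of 22 sections. With library sizes alone in place of TMM factors, the median of all genes moved from 0.03 to 0.23, 41 of the 55 genes were higher (against 53.3% of all genes) and none lower, and Ifna turned to 0.05 (adjusted p 0.56). The 2 lower calls were also lost when any of 8 sections (Il7) or any of 18 sections (Ifna) was left out. Il7 lost the call under 5 of 8 other settings (adjusted p up to 0.82) and Ifna under 6, the change of sign included, and neither passed in Wildtype or in Knockout sections alone.

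**Figure D3:**
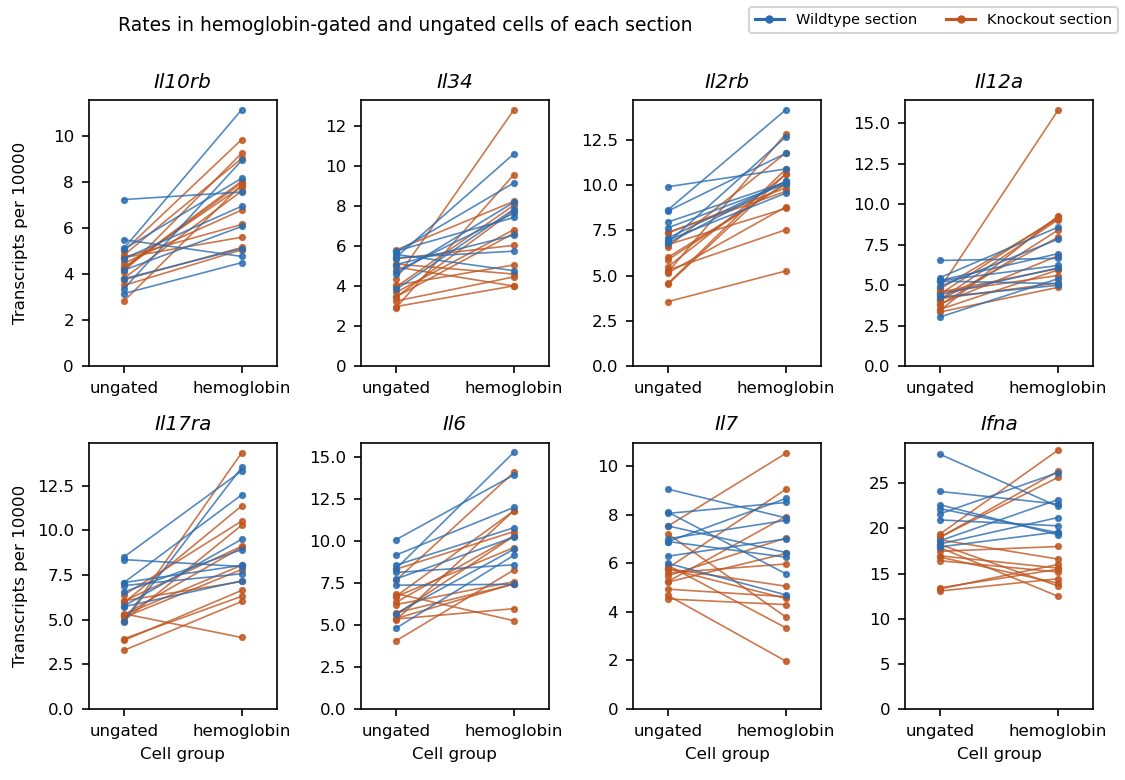
Transcripts per 10000 in ungated and hemoglobin-gated cells of each section, joined by a line, for the 6 genes with the largest rise and the 2 called lower, before TMM scaling. Il2rb was higher in all 22 sections, while the lines of Il7 and Ifna went both ways.

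Other lists also differed in hemoglobin-gated cells. The macrophage list (10 genes) summed to 74.2 per 10000 (54.4 to 92.3 over sections) against 56.3 (43.5 to 82.6) in ungated cells, the lymphoid list (6 genes) to 50.8 (29.6 to 64.9) against 38.4 (26.6 to 57.8), the endothelial list (10 genes) to 101.5 (72.1 to 118.1) against 71.6 (55.2 to 96.5), and the floor to 2.88 against 2.57. Other lists were lower: smooth muscle (7 genes) summed to 115.5 against 186.9, mesenchyme (8 genes) to 99.6 against 167.9 and epithelium (5 genes) to 40.1 against 45.1. No gene of these 6 lists was 2-fold higher, and the lowest ratio to ungated cells was 0.456 among both the smooth muscle and the mesenchymal genes. The gated cells were also deeper, with a median of 280 transcripts per cell against 132. Each of the other gated groups was deeper as well, with medians of 348 (Cdh5), 424 (Tagln and Acta2) and 455 (Twist1). Among cells with at least 200 transcripts, 17 of the 55 genes were higher in hemoglobin-gated cells, 13 of them among the 16. There 43.7% of all genes were called in either direction. With cells of any depth, the number called higher was 23 without section 13 and 21 without section 17, with all 16 among them each time. The part of these lists and of depth in the result was not tested beyond these values.

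The RefSeq promoter table (GRCm38.p6, 250 bases before to 50 after the start) held 8 of the 16 genes that rose. Il6 and Il6ra, a ligand and its receptor that rose together, are shown with AGATAA in capitals on either strand (TTATCT on the other). AGATAA is 1 form of the motif bound by GATA factors of red cells, and its other forms were not searched. Il6ra lies on the minus strand at chr3:89913147-89913446 and Il6 on the plus strand at chr5:30012864-30013163.
Il6ra: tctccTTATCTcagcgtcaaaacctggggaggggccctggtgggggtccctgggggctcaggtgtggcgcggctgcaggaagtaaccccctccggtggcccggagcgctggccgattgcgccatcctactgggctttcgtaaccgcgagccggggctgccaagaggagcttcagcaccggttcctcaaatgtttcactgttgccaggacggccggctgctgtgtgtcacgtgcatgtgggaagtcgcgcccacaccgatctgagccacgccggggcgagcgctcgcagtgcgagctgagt
Il6: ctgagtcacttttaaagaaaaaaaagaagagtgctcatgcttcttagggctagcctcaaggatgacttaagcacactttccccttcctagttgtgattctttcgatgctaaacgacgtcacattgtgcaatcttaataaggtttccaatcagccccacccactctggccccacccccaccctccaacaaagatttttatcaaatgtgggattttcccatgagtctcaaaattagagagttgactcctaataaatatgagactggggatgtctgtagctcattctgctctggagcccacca
The window of Il6ra holds 1 match to AGATAA and that of Il6 holds none, which does not cover other forms of the motif. AGATAA was found in 1 of 12 windows of the genes that rose and in 4 of 50 windows of all members in the table. Of 32851 windows of the genome, 11.2% held it.

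In Cdh5-gated cells, 1 of the 55 genes passed the threshold, against 13.8% of all genes, and 5 (9.09%) were under 0.05 before adjustment, against 22.9% of all genes. Il2rg, the common gamma chain, ran from 1.64 over 5.85 to 9.05 per 10000 in gated and from 2.90 over 5.06 to 8.34 in ungated cells, higher in 20 of 22 sections. The ranges overlapped, and the log2 fold change was 0.27 ± 0.098 with an edgeR adjusted p of 0.048. This call was lost when any 1 of 16 of the 22 sections was left out (adjusted p 0.0096 to 0.12 over the 22) and under 6 of 8 other settings. Il15 had a log2 fold change of 0.28 with an adjusted p of 0.051. Il1r1 and Il6st, receptor chains that endothelium is known to carry, had log2 fold changes of -0.03 and 0.19, neither past the threshold.

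In Tagln and Acta2-gated cells, 3 of the 55 genes were higher and none lower, against 12.3% of all genes called. With library sizes alone the 3 calls were 1 higher (Il17b) and 2 lower (Il1b and Il1rn), against 13.3% of all genes called. A gate of 5% of cells gave 1 higher (Il17b) and 1 lower (Il23a), against 12.6%. The genes called lower were named after their values were seen. Il17b, a ligand of the IL-17 family, ran from 1.68 over 4.83 to 15.5 per 10000 in gated and from 2.86 over 4.35 to 5.03 in ungated cells. The ranges overlapped, the highest value was that of Knockout section 1, and 12 of 22 sections were higher. The log2 fold change was 0.49 ± 0.12 (edgeR adjusted p 0.00096), and 0.36 without Knockout section 1. Il12b, a subunit shared by IL-12 and IL-23, and Il33, an alarmin, followed at 0.38 ± 0.12 and 0.34 ± 0.11 (edgeR adjusted p 0.021 and 0.026), and were higher in 17 and 12 of 22 sections. The call of Il12b was lost without Knockout section 11 and that of Il33 without any of Knockout sections 8, 9 and 10 or Wildtype section 15. Each of these was also lost under 4 of 8 other settings (adjusted p up to 0.53 for Il12b and 0.84 for Il33), and Il17b under 1, Wildtype sections alone (adjusted p 0.12). The smooth muscle list summed to 441.0 per 10000 in these cells (138.5 to 983.6) and the mesenchymal list to 320.6 (128.5 to 1015), against 186.9 and 167.9 in ungated cells, and their part in the result was not tested.

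None of the 55 genes passed the threshold in Twist1-gated cells by edgeR, against 6.45% of all genes. DESeq2 called none either, and 4 (7.27%) were under 0.05 before adjustment, against 15.6% of all genes. Their log2 fold changes lay between -0.25 (Il1r1) and 0.23 (Il1rap). Section 17 held 6 Twist1-gated cells, under the minimum of 10, and was left out of this group.

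**Figure D4:**
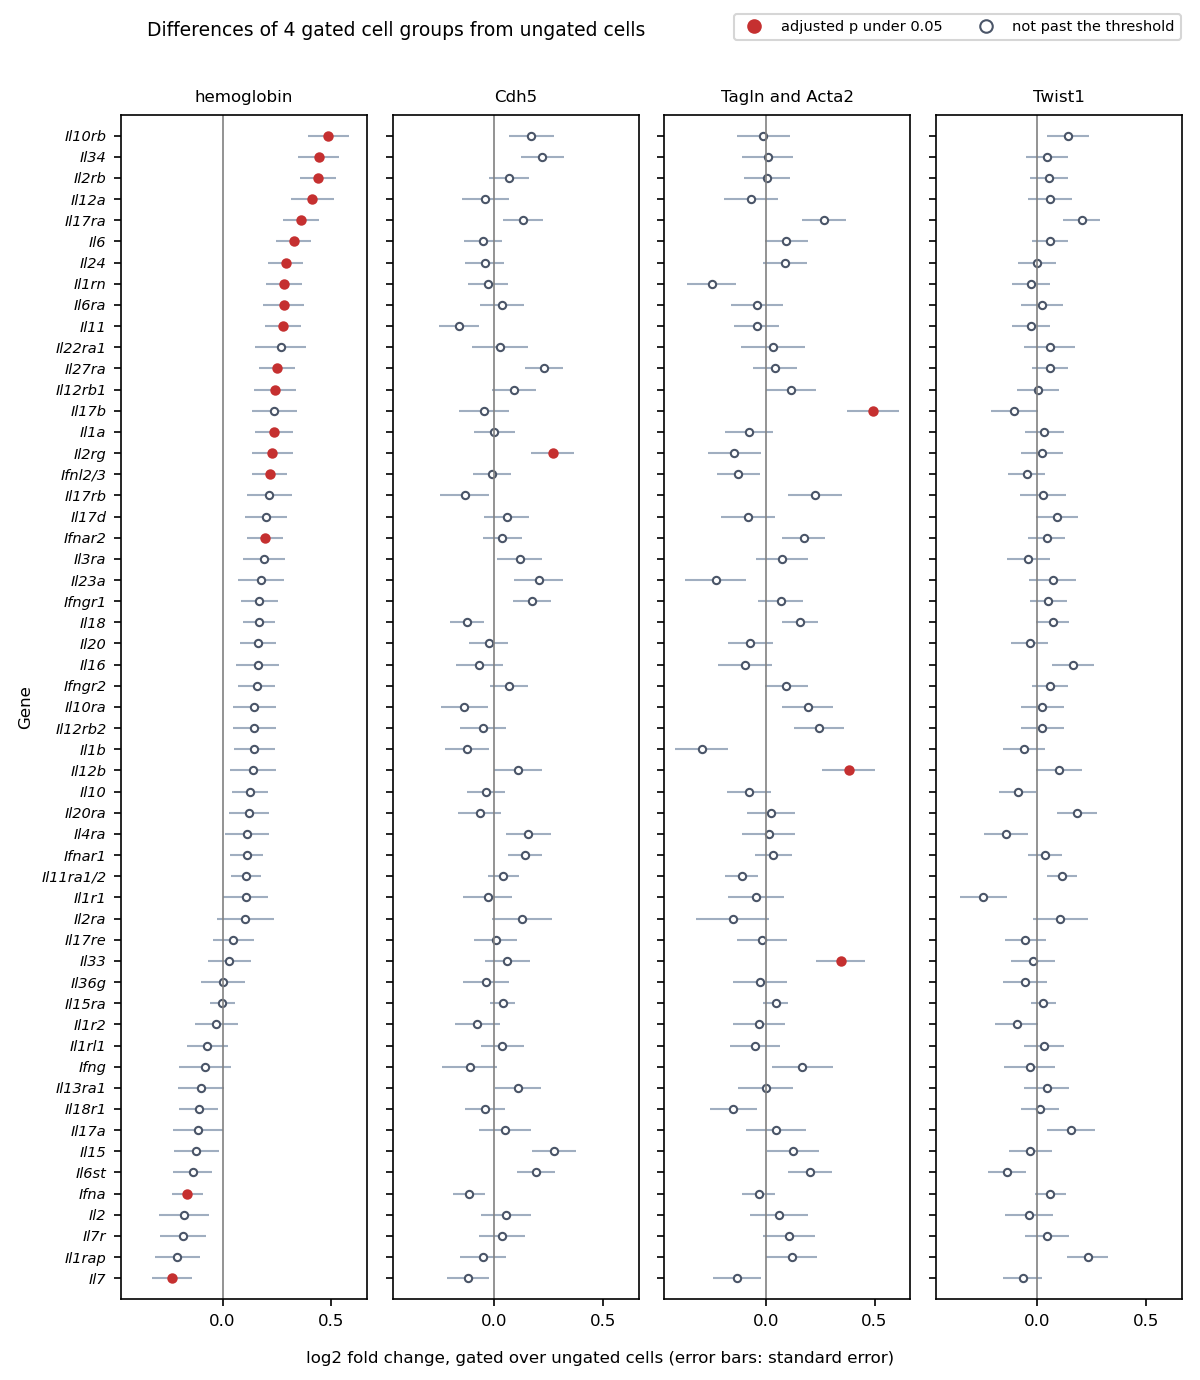
Log2 fold change of each of the 55 genes in hemoglobin, Cdh5, Tagln and Acta2, and Twist1-gated cells against ungated cells, with its standard error, ordered by the first panel. Filled points (18, 1, 3 and 0) passed an adjusted p of 0.05 in edgeR.

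Over the 5 cell groups, the highest group mean of a gene, relative to the floor, was 1.27 times the lowest at the median of the 55 genes, against 1.33 times over all 992 genes. 5 of the 55 (9.09%) reached 1.5 times, against 23.4% of all genes. These were Il17b, Il12a, Il1rn, Il10rb and Il1b, named after their values were seen, and for each the largest mean was in hemoglobin-gated cells except Il17b.

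Between the embryos, over all cells, 1 of the 55 genes passed the threshold by edgeR, against 12.5% of 998 genes. 48 of the 55 had a log2 fold change of Knockout over Wildtype below 0, with a median of -0.10 against -0.03 for all genes and -0.02 for the dimmest 50. The gene called was Il11, whose lowest, median and highest rates were 7.39, 8.93 and 13.6 per 10000 in Wildtype and 1.71, 6.02 and 7.71 in Knockout sections. The ranges overlapped slightly, and the lowest value was that of section 13. The log2 fold change was -0.40 ± 0.13 (edgeR adjusted p 0.046). The call was lost when any of 14 sections was left out (adjusted p 0.0053 to 0.10 over the 22), while without section 13 it was -0.33 with an adjusted p of 0.0053. Among sections numbered 1 in their names alone the log2 fold change was -0.24 (adjusted p 0.29), and among those numbered 2 it was -0.57 (adjusted p 0.14).

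The scaling decided how many of the other genes passed. With library sizes alone, all genes had a median of -0.30 on the log2 scale in place of -0.03, and 53 of the 55 genes passed as lower in Knockout, against 72% of all genes. The exceptions were Il10rb and Il15ra. Relative to the floor of each section the median of the 55 was 2.00 times in Wildtype and 1.88 times in Knockout, and that of all genes 2.36 and 2.27 times. Il15ra had the largest positive value, 0.42 ± 0.36 (edgeR adjusted p 0.47), which was 1.38 among sections numbered 1 and -0.43 among those numbered 2.

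**Figure D5:**
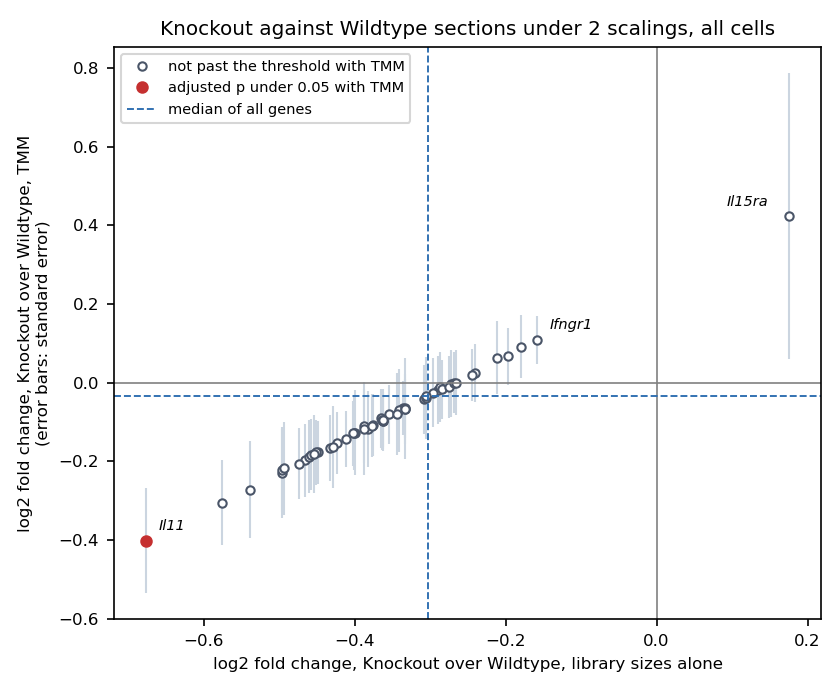
Log2 fold change of Knockout over Wildtype sections for each of the 55 genes over all cells, with library sizes alone (horizontal axis) and with TMM (vertical axis, standard error as bars). The dashed lines are the medians of all genes, -0.30 and -0.03, and Il11 alone passed an adjusted p of 0.05 with TMM.

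Of the other fixed genes, the IL-1 and IL-6 pathway genes Il1b, Il1r1, Il6, Il6ra and Il6st had log2 fold changes of -0.07, -0.18, -0.03, -0.06 and 0.09 between the embryos. The interferon genes Ifna, Ifnar1, Ifnar2, Ifng, Ifngr1 and Ifngr2 lay between -0.09 and 0.11 and Ifnl2/3 at -0.27 (edgeR adjusted p 0.15), with Il11ra1/2, Il2rg and Il7r at -0.13, -0.19 and -0.17, and Il3ra, Il17a and Il2ra at -0.07, -0.11 and -0.07. None of these passed the threshold.

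Within cell groups the embryos gave 1 further call. In hemoglobin-gated cells 1 of 55 genes passed by edgeR, against 3.48% of 978 genes. Il1a, a cytokine released by damaged cells, ran from 7.67 over 10.4 to 11.4 per 10000 in Wildtype and from 2.26 over 5.62 to 9.29 in Knockout sections. The ranges overlapped, and the log2 fold change was -0.55 ± 0.16 (edgeR adjusted p 0.034). It was lost when any of 11 sections was left out (adjusted p 0.017 to 0.072 over the 22), section 13 among them. In Cdh5-gated cells 0 of 53 genes tested passed by edgeR and by DESeq2, against 6.93% of 953 genes, and 4 (7.55%) were under 0.05 before adjustment, against 15.3% of all genes. In Tagln and Acta2-gated cells 0 of 46 passed by either tool, against 2.57% of 817 genes, and 3 (6.52%) were under 0.05 before adjustment, against 14.1%. In Twist1-gated cells 0 of 55 passed by either tool, against 2.74% of 987 genes, and 6 (10.9%) were under 0.05 before adjustment, against 11.6%.

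Whether the embryos differed more in a gated group than in ungated cells was tested as an interaction. By edgeR 0 of the 55 genes passed for the Cdh5, Tagln and Acta2, and Twist1 gates, where 0% of 992 genes passed, and 0 for the hemoglobin gate, against 0.605%. Before adjustment 3.64% of the 55 genes were under 0.05 for the first 3 gates, against 5.14, 6.65 and 4.44% of all genes, and 9.09% for the hemoglobin gate, against 7.76%. DESeq2 was not run on this term. The lowest adjusted p was that of Il27ra at the hemoglobin gate, 0.055, with an interaction of 0.57 ± 0.16 on the log2 scale.

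Other genes of these pathways were counted from fixed lists. In hemoglobin-gated cells, 4 of 9 JAK-STAT genes rose (Stat3 by 0.37, Stat5b by 0.29, Tyk2 by 0.29 and Jak2 by 0.26 on the log2 scale) and Jak1 fell by 0.30, where 22.9% of all genes rose and 23.7% fell. Of 23 interferon-response genes, 8 rose there against the same 22.9%, led by Bst2, an antiviral tetherin, at 0.65 ± 0.076 (edgeR adjusted p 6.3e-14), and Ifitm2 fell by 0.37. Of 13 related cytokine genes 6 rose, again against 22.9%, led by Epor and Csf2rb at 2.13 and 2.06, which also served to check this gate, and Cntfr fell by 0.50. In Cdh5-gated cells Stat3 and B2m rose by 0.22 and 0.32 and Cntfr fell by 0.38, where 13.8% of all genes were called. No gene of the lists passed for the Tagln and Acta2 or the Twist1 gate, against 12.3 and 6.45% of all genes. Between the embryos Jak1 and B2m were higher in Knockout sections by 0.28 and 0.25, and Tyk2 and Oas2 were lower by 0.27 and 0.26. In that comparison 12.5% of all genes were called. No gene of the lists was called between the embryos within a cell group, against 2.57 to 6.93% of all genes tested.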

How the data were processed

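The authors imaged the sections with CosMx, segmented cells with the instrument's software and deposited raw transcript counts per cell and gene. The tables held 998 genes, and no column was left unmapped. Cells with at least 10 transcripts and 10 genes were kept. Gates were set at the lowest count that at most 10% of cells reach (Cdh5 at 2, hemoglobin genes at 9, Tagln and Acta2 at 1 each, Twist1 at 5), and cells past more than 1 gate (1994) were left out of the groups. No doublet caller was run. Counts were summed per section and group (at least 10 cells) and tested with edgeR 4.0.16 (quasi-likelihood, TMM, Benjamini-Hochberg) in R 4.3.3, with DESeq2 1.42.0 as an alternative, after tests on simulated data. Gate contrasts held the section as a block and left the 6 gate genes out. Rates were computed in Python 3.11.15 against the dimmest 5% of genes. Counting error is covered by the spread between sections.

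The genes named are those at 2 or more times the floor, those that passed between embryos, and a fixed list of receptors and ligands. Up to 6 per direction and gate were added that passed over all sections and had the same sign in each embryo alone. The members and lists were chosen with earlier results of these data known. Alternatives were library sizes alone, DESeq2, no filter, other cell and gate limits, each embryo or section number alone, and each section left out.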

Additional observations from a re-analysis of the deposited data

Results flagged for a closer look

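Of the 39 genes tested, 4 had a Wildtype section far from the other 8, and in each it was section 17, which also had the highest rate of 39.8% of the panel. Ifngr2 was at 11.1 per 10000 there (6.97 to 8.60 in the others), Il17ra at 10.2 (6.22 to 7.56), Il18 at 15.6 (9.52 to 11) and Il20 at 10.2 (6.63 to 8.23). Of the 16 genes not tested, Il17d was at 8.0 there and at 4.54 to 6.20 in the others. Dixon's test was made on the 9 Wildtype sections only, and chance flags about 1 in 20 genes.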

How the results depend on the processing

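Counts of the 55 genes called moved as follows. With library sizes alone, they were 53 between the embryos over all cells (77.9% of all genes were called), 4, 35 and 1 in Cdh5, hemoglobin, and Tagln and Acta2-gated cells (8.92, 53 and 1.59% of all genes), 0 for the Cdh5 gate (14.3%), 41 for the hemoglobin gate (66.2%) and 1 for its interaction with the embryo (1.11%). DESeq2 called 2 between the embryos over all cells (15.8% of all genes), 3 in hemoglobin-gated cells (4.6%), 3 for the Cdh5 gate (15%) and 26, of which 25 higher, for the hemoglobin gate (52.8%). Sections numbered 1 alone gave 0 over all cells (5.51% of all genes) and 0 in hemoglobin-gated cells (1.92%). Sections numbered 2 alone gave 0 in each of these (9.82 and 3.04%) and 1 in Twist1-gated cells (2.83%). Cells with at least 50 transcripts gave 0 over all cells (12% of all genes were called) and 0 for the Cdh5 gate (12.3%). A gate of 5% of cells gave 0 between the embryos in hemoglobin-gated cells (3.49%). Wildtype sections alone gave 0, 9 and 1 for the Cdh5, hemoglobin, and Tagln and Acta2 gates (3.93, 28.6 and 4.03% of all genes). Knockout sections alone gave 0 for the Cdh5 gate (11.6%). Cells with at least 200 transcripts, an alternative chosen after seeing the data, gave 0 for the Cdh5 gate (11% of all genes). They gave 1 for the Tagln and Acta2 gate (8.38%). With the dimmest 10% as the floor, 16 genes reached 2 times (29.1%, against 47.8% of the 992 genes outside the gates). Ifna in the hemoglobin gate turned to 0.046 with library sizes alone, and Il15ra between the embryos to -0.43 in sections numbered 2. Leaving out 1 section at a time, the counts were 0 to 2 between the embryos over all cells. They were 0 to 0, 0 to 1, 0 to 1 and 0 to 0 in Cdh5, hemoglobin, Tagln and Acta2, and Twist1-gated cells. For the same gates against ungated cells they were 0 to 2, 15 to 25, 2 to 4 and 0 to 0. The shares of all genes are not given for these counts. The causes were not tested. The gate contrasts were paired, with the section as a block. No paired analysis was possible because the section numbers 1 to 22 do not overlap between the genotypes, which holds for the embryos only. The number 1 or 2 of the section names was also used as a replicate block, an alternative chosen after seeing the data. It gave 1 gene called in Tagln and Acta2-gated cells (2.84% of all genes). The other counts between the embryos were 1 over all cells (14.5%) and 0, 1 and 0 in Cdh5, hemoglobin and Twist1-gated cells (6.91, 4.15 and 2.73%).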
